A study of Homo sapiens with 6 samples.

Results

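Chromosome 19 carries the largest group of human zinc finger (ZNF) genes, and the 233 of them that could be read on the array are described here in DLD1 cells given a short hairpin RNA (shRNA) against CDKL1. Members were genes with a symbol of ZNF followed by a number, with at most 1 further letter, that lie on chromosome 19 in the RefSeq gene table. Each was read by its probe set of highest mean signal over the 6 arrays, among probe sets annotated to that gene alone. They were 233 of 18132 genes measured, and 227 of them were annotated as protein-coding and 6 as transcribed pseudogenes. A further 253 ZNF genes on other chromosomes and 1060 other genes on chromosome 19 served for comparison.

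Most of these genes encode proteins with an array of C2H2 zinc fingers, small domains that each hold a zinc ion and contact a few bases of DNA. Many of them also carry an amino-terminal KRAB domain, which recruits the corepressor TRIM28 and, through it, the histone methyltransferase SETDB1 and heterochromatin protein 1, so that the bound DNA becomes marked by histone H3 lysine 9 trimethylation. A well described task of such KRAB zinc finger proteins is the silencing of transposable elements, and the genes expanded in clusters by tandem duplication, so that neighbours are often close relatives in sequence.

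DLD1 is an established human colorectal adenocarcinoma line. The 3 CDKL1 shRNA samples came from cells that had received lentivirus expressing an shRNA against CDKL1, a serine/threonine kinase related to the cyclin-dependent kinases, and the 3 control shRNA samples from cells that had received lentivirus expressing a control shRNA. Both groups thus carried a lentivirus and an shRNA. The labels give neither the time after infection nor the hairpin sequence, and the design calls the samples of a group independent without saying whether they were separate infections, so part of the spread behind each p-value may be technical. Total RNA of each sample was hybridised to 1 Affymetrix array, and the values are log2 signals normalised by the authors with RMA.

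Across the whole array, medians lay between 6.64 and 6.70, and arrays of 1 group correlated at r = 0.9976 to 0.9984 over probe sets, which are not independent replicates. CDKL1 itself had signals of 4.25, 4.20 and 4.08 in CDKL1 shRNA arrays and 4.51, 4.42 and 4.17 in control arrays, within the range of 2.97 to 4.92 spanned by the array's background controls (probes holding 10 to 16 G or C), and did not pass the test (log2 change -0.19, limma adjusted p = 0.219). The knockdown could therefore not be checked with this probe set. Of the 10 colorectal epithelial markers EPCAM, CDH1, KRT8, KRT18, KRT19, VIL1, CDX1, CDX2, LGALS4 and CEACAM5, only CEACAM5 lay within the background range in both groups, and VIL1 alone was called, lower; 4 of the 10 (CDH1, KRT8, KRT18 and VIL1) were lower and 0 higher at an unadjusted p under 0.05, without overlap between the groups. None of the 7 fibroblast, 6 leukocyte and 6 endothelial marker genes measured was called in limma, and 0 had an unadjusted p under 0.05. RNA quality was read from control probes at both ends of ACTB: their log2 signal at the 3' end exceeded that at the 5' end by 1.52, 1.73 and 1.55 in CDKL1 shRNA arrays and 1.40, 1.41 and 1.39 in control arrays (ACTB difference, exact two-sided permutation p = 0.1, the smallest that 3 arrays against 3 allow), and that of GAPDH averaged 0.275 ± 0.0262 in CDKL1 shRNA arrays and 0.203 ± 0.0180 in control arrays (SD, n = 3 each).

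The chromosome 19 ZNF genes that changed were nearly all higher in CDKL1 shRNA arrays. Of the 233 members, 33 rose, 3 fell and 197 did not pass an adjusted p of 0.05 (limma over all 18132 genes, Benjamini-Hochberg). In either direction 15.5% of members were called, close to the 16.8% of all genes, but 14.2% of members were called higher against 8.97% of all genes, and 1.29% were called lower against 7.79%. The rises were small. They ran from 1.11-fold to 1.51-fold with a median of 1.24-fold, and 1 of the 233 members changed at least 1.5-fold. In all 33 the CDKL1 shRNA arrays lay entirely above the control arrays. A call made on the same 3 arrays against 3 favours such genes, so this adds no support to the calls. Over all members the CDKL1 shRNA arrays lay entirely above the controls for 59 (25.3%, against 18.1% of all genes) and entirely below for 15 (6.44%, against 17.6%).

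ZNF genes on other chromosomes also had more rises than falls, whereas the other genes of chromosome 19 had fewer. Of the 253 ZNF genes elsewhere, 28 rose and 11 fell, which is 11.1% and 4.35%. The CDKL1 shRNA arrays lay entirely above the controls for 74 of them (29.2%, against 25.3% of members). They lay entirely below for 29 (11.5%, against 6.44% of members). Of the 1060 other genes on chromosome 19, 56 rose and 83 fell, which is 5.28% and 7.83%. The median log2 change was 0.04 over chromosome 19 ZNF genes, 0.02 over ZNF genes elsewhere, -0.04 over the other genes of the chromosome and -0.01 over all genes. Members with a positive change numbered 143 (61.4%), against 55.3% of ZNF genes elsewhere and 45.8% of all genes. These shares describe the lists and were not tested against each other, since genes of a list are not replicates. Among ZNF genes elsewhere the largest called rises were ZNF140 (log2 change 0.55) and ZNF394 (0.49), and the largest called falls were ZNF117 (-0.44) and ZNF687 (-0.40), of which ZNF687 had a mean of 4.83, within the background range, so that its size is uncertain. The fall of ZNF117 was seen in 1 of its 3 probe sets, and with the mean of its probe sets it did not pass (limma, adjusted p = 0.082).

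**Figure D1:**
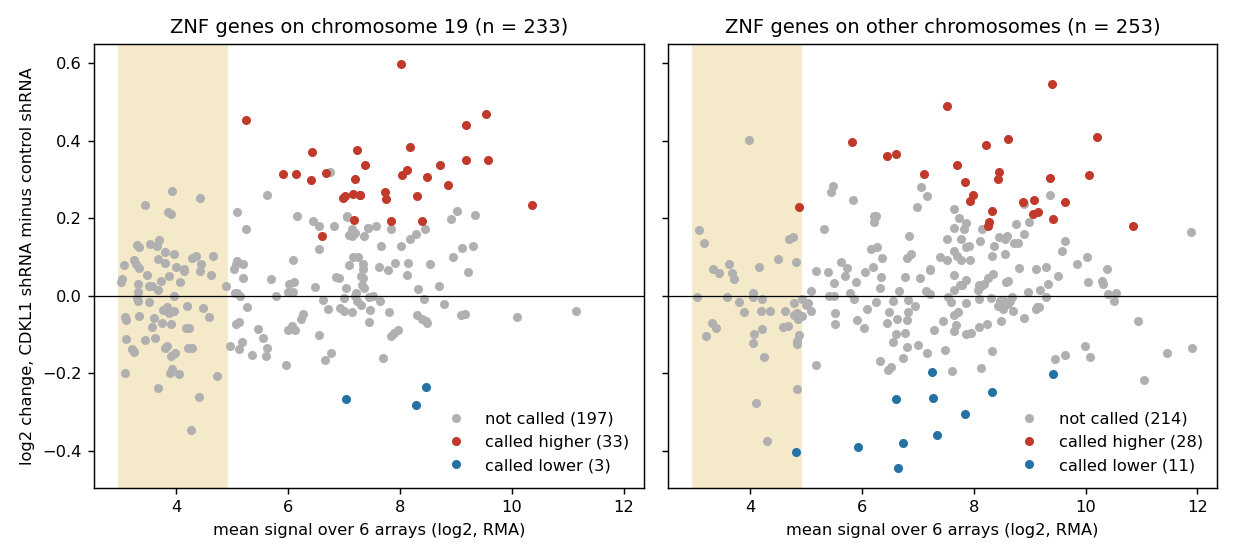
Log2 change (CDKL1 shRNA minus control shRNA, 3 arrays each) of each ZNF gene against its mean log2 signal over the 6 arrays, for 233 genes on chromosome 19 (left) and 253 on other chromosomes (right). Red points were called higher and blue points lower at an adjusted p of 0.05 (limma), and the shaded band spans the background control probe sets, 2.97 to 4.92. On chromosome 19, 33 genes were called higher and 3 lower, and none of these called genes lay in the band.

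Many of these genes gave little signal. Their median signal was 6.23, against 7.46 for ZNF genes elsewhere and 7.28 for all genes, and 79 of the 233 (33.9%) had a mean at or below the highest background control, against 17.8% of all genes. None of those 79 was called in limma at an adjusted p of 0.05, and 3 of them were higher and 9 lower at an unadjusted p under 0.05. The 74 members with a signal above the median gene held 20 of the rises and 2 of the falls, so that 27.0% were called higher, against 15.5% of all genes of that signal, and 2.70% lower, against 12.3%. ZNF genes elsewhere with a signal above the median gene had 17.8% called higher and 3.10% called lower. Among members at or below the median gene, 13 of 159 rose (8.18%, against 2.42% of all genes of that signal) and 1 fell (0.629%, against 3.31%). Among dim probe sets RMA shrinks differences, so a gene that did not pass in the dim range may have changed undetected. Probes differ in how well they bind, so the signal of a probe set is no measure of how abundant its transcript is relative to that of another gene.

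The largest rise was that of ZNF805, a member of the last cluster along the chromosome. ZNF805 gave 8.30, 8.35 and 8.30 in CDKL1 shRNA arrays, against 7.64, 7.81 and 7.71 in control arrays. The groups were separated by more than their own spread, and the log2 change was 0.60 (SE 0.05, adjusted p = 0.000788, limma). All 4 of its probe sets were higher, by 0.30 to 0.60. ZNF544, from the same cluster, gave 9.62, 9.86 and 9.83 in CDKL1 shRNA arrays, against 9.25, 9.30 and 9.35 in control arrays, a log2 change of 0.47 (SE 0.07). It was higher in 3 of 4 probe sets, by 0.47, 0.59 and 0.54, while the fourth, the one with the lowest signal, gave -0.04. ZNF432, which has been described as a reader of poly(ADP-ribose) in DNA repair, gave 5.31, 5.38 and 5.74 in CDKL1 shRNA arrays, against 5.18, 4.95 and 4.93 in control arrays. Its log2 change of 0.45 had the widest error of the 12 largest rises (SE 0.12, adjusted p = 0.045), CDKL1 shRNA replicate 3 stood highest, and the call was lost when any 1 array was left out (adjusted p up to 0.259 over all alternatives).

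ZNF264 gave 8.37, 8.44 and 8.29 in CDKL1 shRNA arrays, against 8.01, 7.89 and 8.05 in control arrays, and both of its probe sets were higher (0.38 and 0.22). The first has the suffix _s, which like _x marks possible binding of related transcripts. The second had a mean of 4.26, within the background range, and did not pass (limma, adjusted p = 0.191 over all probe sets). ZNF426 was read by a single probe set, of suffix _x, with 7.47, 7.34 and 7.42 in CDKL1 shRNA arrays, against 7.17, 6.99 and 6.95 in control arrays. Its log2 change was 0.38 (SE 0.07), with control replicate 1 nearest to the CDKL1 shRNA arrays. ZNF222, also read by 1 probe set, gave 6.66, 6.53 and 6.62 in CDKL1 shRNA arrays, against 6.22, 6.38 and 6.10 in control arrays. The control arrays of ZNF222 were spread more widely than the CDKL1 shRNA arrays (SD 0.0678 in CDKL1 shRNA arrays and 0.139 in control arrays), and its log2 change of 0.37 lost its call in 3 of 6 fits with 1 array left out (without CDKL1 shRNA replicate 1 or 3 or control replicate 1). ZNF317 gave 9.27, 9.39 and 9.39 in CDKL1 shRNA arrays, against 8.97, 9.07 and 8.96 in control arrays, a log2 change of 0.35. That rise came from the probe set with the highest signal, and the other 4, with mean signals of 4.89 to 6.21, gave 0.09, -0.01, -0.04 and 0.02.

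ZNF44 had a log2 change of 0.34 (SE 0.05), with 7.55, 7.59 and 7.51 in CDKL1 shRNA arrays, against 7.21, 7.15 and 7.29 in control arrays. Its only probe set also has the suffix _x. ZNF766 gave 8.80, 8.94 and 8.93 in CDKL1 shRNA arrays, against 8.56, 8.57 and 8.52 in control arrays, and its 3 probe sets were higher by 0.13 to 0.39. ZNF561 gave 8.21, 8.39 and 8.29 in CDKL1 shRNA arrays, against 8.03, 7.94 and 7.94 in control arrays, and its 6 probe sets were all higher, by 0.15 to 0.40. Across the 33 risen members, 22 had several probe sets, and in 15 of these every probe set was higher in CDKL1 shRNA arrays. Members share stretches of sequence, and 13 of the 33 were read by probe sets whose suffix (_s or _x) marks possible binding of related transcripts, against 81 of all 233 members (34.8%) and 26.6% of all genes. With such probe sets left out, 22 members rose and 2 fell among 197 that could still be read (7.6% and 6.63% of all genes in that fit). Of the 33 risen members 27 could be read in that fit, where 26 were positive and 20 were called. Over all 504 probe sets of the members, fitted together with every other probe set, 56 (11.1%) were called higher and 3 (0.595%) lower, against 7.43% and 5.34% of all 44988 probe sets.

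**Figure D2:**
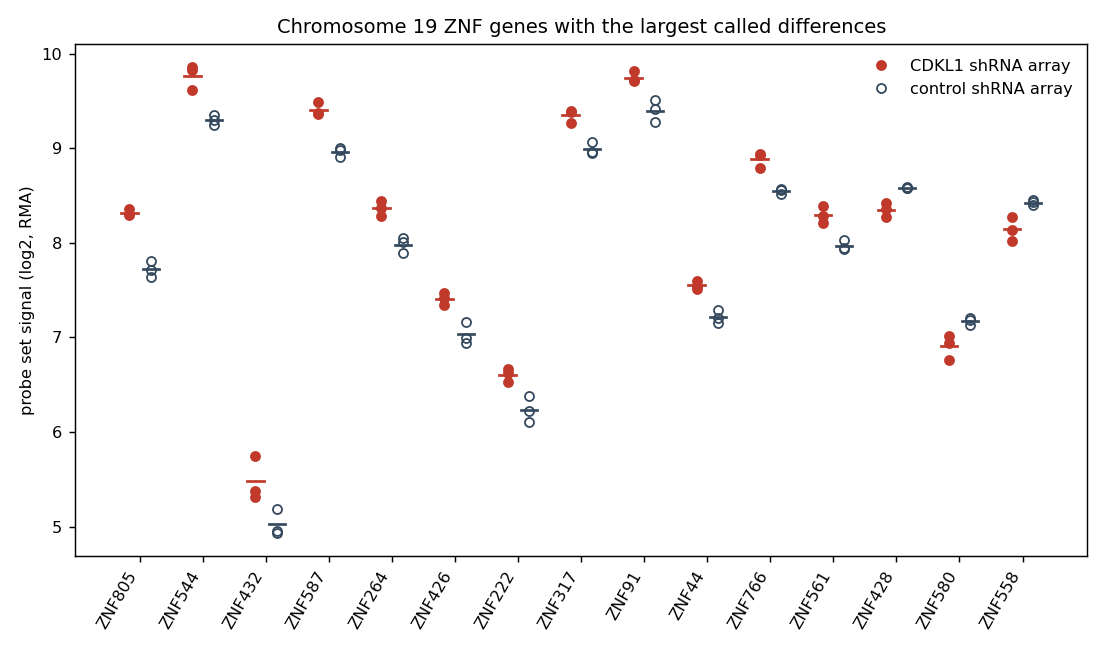
Log2 RMA signal of the 12 chromosome 19 ZNF genes with the largest called rise and the 3 called lower, in each of 3 CDKL1 shRNA arrays (filled red, left) and 3 control shRNA arrays (open, right). Points are arrays and short lines are group means. For ZNF805 the CDKL1 shRNA arrays lie between 8.30 and 8.35 and the controls between 7.64 and 7.81. Only called genes whose groups do not overlap were eligible for the figure.

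Among the 3 members that fell, ZNF580 and ZNF428 encode small zinc finger proteins without a KRAB domain, whereas ZNF558 encodes a KRAB zinc finger protein known to repress the gene SPHKAP in human neural progenitors. ZNF558 gave 8.03, 8.28 and 8.14 in CDKL1 shRNA arrays, against 8.46, 8.40 and 8.43 in control arrays, 1.22-fold lower, with negative values in each of its 4 probe sets (log2 changes of -0.28 to -0.03). CDKL1 shRNA replicate 2, the array with the highest ACTB difference, stood nearest to the controls. ZNF580 gave 6.94, 7.02 and 6.76 in CDKL1 shRNA arrays, against 7.18, 7.14 and 7.20 in control arrays, a log2 change of -0.27 (SE 0.07, adjusted p = 0.0412, limma). ZNF428 fell by 0.24 on the log2 scale (SE 0.05), with 8.36, 8.27 and 8.42 in CDKL1 shRNA arrays, against 8.60, 8.58 and 8.58 in control arrays, and both of its probe sets were lower. The falls rest on all arrays: each of these 3 genes lost its call in 5 of 6 fits with 1 array left out, and without any one of the control arrays 0 of the 3 were called in limma, with adjusted p of 0.0504 to 0.117. The 1 member called lower in each of those control-array fits was a different gene.

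Members with a described part in retroelement silencing included both called and uncalled genes. Of 8 such genes 2 rose and 6 did not pass, which is 25% called higher, against 14.2% of all members and 8.97% of all genes, and 2 of the 8 lay within the background range. ZNF91, which binds and represses SVA elements, gave 9.82, 9.72 and 9.71 in CDKL1 shRNA arrays, against 9.28, 9.41 and 9.51 in control arrays, a log2 change of 0.35 (SE 0.07, adjusted p = 0.0143, limma). Its call was lost without CDKL1 shRNA replicate 1 (adjusted p = 0.0529). Its second probe set, which is not marked for cross-hybridisation, was higher by 0.16 and did not pass (adjusted p = 0.159 over all probe sets). ZNF587, which acts on HERV-K elements, gave 9.36, 9.37 and 9.49 in CDKL1 shRNA arrays, against 9.01, 8.98 and 8.91 in control arrays, a log2 change of 0.44 (SE 0.05). Its other probe set gave -0.01, and both are of the cross-hybridising kind, and its close relative ZNF417 lay within the background range (3.72 in CDKL1 shRNA arrays and 3.62 in control arrays on average). ZNF93 and ZNF649, which act on L1 elements, had log2 changes of 0.01 and 0.07. ZNF765, likewise linked to L1 elements, gave -0.02 through its probe set of highest signal, whereas another of its 5 probe sets was higher by 0.46 (limma, adjusted p = 0.00837 over all probe sets). ZNF808, which silences MER11 elements and is needed for pancreas development, had a log2 change of 0.21 (limma, adjusted p = 0.0858), and ZNF534, linked to HERV-H elements, lay within the background range.

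Among members with a part in heterochromatin, imprinting and RNA processing, ZNF274 and ZNF473 rose. ZNF274, which brings SETDB1 to the 3' ends of zinc finger genes, gave 8.37, 8.45 and 8.47 in CDKL1 shRNA arrays, against 8.12, 8.23 and 8.16 in control arrays (log2 change 0.26, SE 0.05). That rise was seen in 1 of its 4 probe sets, the others gave -0.08, -0.01 and -0.05, and with the cross-hybridising probe set left out the direction turned to -0.08. Its call was also lost without CDKL1 shRNA replicate 3 or control replicate 3 (limma, adjusted p = 0.0586 and 0.0521). ZNF473, a component of the machinery that forms the 3' ends of histone messenger RNAs, gave 7.87, 8.01 and 7.90 in CDKL1 shRNA arrays, against 7.74, 7.70 and 7.77 in control arrays. Its log2 change of 0.19 lay close to the threshold (adjusted p = 0.0485, limma), its other probe set gave -0.04, and the call was lost with any 1 array left out. ZNF331, an imprinted gene, had a log2 change of -0.00085 (SE 0.07).

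None of the 11 members with a described role in signalling, the p53 response or cancer passed the limma test, and 3 were higher at an unadjusted p under 0.05 (against 15% of all genes), with 5 of the 11 within the background range. ZNF420, an inhibitor of p53 also called Apak, gave 7.27, 7.12 and 7.06 in CDKL1 shRNA arrays, against 6.99, 6.94 and 6.91 in control arrays (log2 change 0.20, limma adjusted p = 0.0717). ZNF224, a partner of the WT1 protein, had a log2 change of 0.16 (limma, adjusted p = 0.089) without overlap between the groups. ZNF304 lay within the background range, with a log2 change of 0.21 (SE 0.13). ZNF675, an inhibitor of TRAF6 signalling, ZNF350, a partner of BRCA1, ZNF382 and ZNF667 were likewise within that range. ZNF160, a repressor of TLR4 in intestinal epithelial cells, had a log2 change of 0.03, ZNF175 of 0.00047 and ZNF71 of -0.03. ZNF146, a finger-only protein found in excess in colorectal and pancreatic tumours, was read by the member probe set of highest signal, and gave 11.12, 11.16 and 11.13 in CDKL1 shRNA arrays, against 11.20, 11.17 and 11.16 in control arrays (log2 change -0.04, SE 0.04). Of the other probe sets with the highest signals, that of ZNF562 rose by 0.23 (SE 0.05), with all 4 of its probe sets higher, and that of ZNF440 gave -0.05. The call of ZNF562 was lost without CDKL1 shRNA replicate 1 or control replicate 2 (limma, adjusted p = 0.0518 and 0.0536).

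Outside the KRAB class, ZNF536, a regulator of neuronal differentiation, had a log2 change of -0.10, ZNF296, a partner of KLF4, of 0.05 and ZNF444 of 0.02. None of these 3 passed. ZNF580 of the same list fell, as given above. The rises of ZNF526, ZNF784 and ZNF787 (log2 changes of 0.26, 0.26 and 0.19) were also those of zinc finger genes outside the KRAB class, and these 3 were picked out after their values were seen.

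Risen members lay in most of the clusters rather than in 1 of them. The 227 protein-coding members were put in their order along the chromosome, and runs were formed of members with at most 5 other protein-coding genes between neighbours, a grouping made after the values were seen. There were 11 runs of at least 5 members, which held 205 members and 29 of the 33 rises, and 10 of the 11 runs held at least 1 rise. The counts of each run, here and below, stand beside 14.2% of all members and 8.97% of all genes called higher. Called lower were 1.29% of all members and 7.79% of all genes. The runs were not tested against these shares, and a larger run can hold more rises by its size alone. The run from ZNF264 to ZNF446 was the largest, with 43 members, of which 9 rose and 0 fell. Besides ZNF264, ZNF805, ZNF587, ZNF274 and ZNF544 these were ZNF551, ZNF552, ZNF814 and ZNF329, with log2 changes of 0.27, 0.31, 0.30 and 0.26. In the run from ZNF317 to ZNF846, 5 of 10 members rose (ZNF317, ZNF559, ZNF426, ZNF561 and ZNF562), with a median log2 change of 0.17. The run from ZNF283 to ZNF180 had 4 rises among 20 members (ZNF222, ZNF223, ZNF227 and ZNF235), with 17 of 20 positive and a median of 0.14.

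The run from ZNF101 to ZNF254, which holds many genes of recent primate origin, had 1 rise, that of ZNF91, among 29 members. Its median signal was 3.81, within the background range, and 1 of the 29 had a signal above the median gene. The run from ZNF577 to ZNF331 had 2 rises among 36 members (ZNF432 and ZNF766), and that from ZNF653 to ZNF791 had 1 among 21 (ZNF44). The run from ZNF565 to ZNF573 had 4 among 23 (ZNF565, ZNF567, ZNF527 and ZNF571), with log2 changes of 0.19, 0.25, 0.15 and 0.32. The run from ZNF582 to ZNF835, the one without a rise, had 7 members, a median signal of 4.45 and 3 positive changes. Of 226 pairs of neighbours in the order, 122 had changes of the same sign. With 61.4% of all members positive, unrelated genes would often share a sign too, so this count is no result about neighbours. Neighbours are often near-copies and may share probe signal, so these pairs are not independent.

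**Figure D3:**
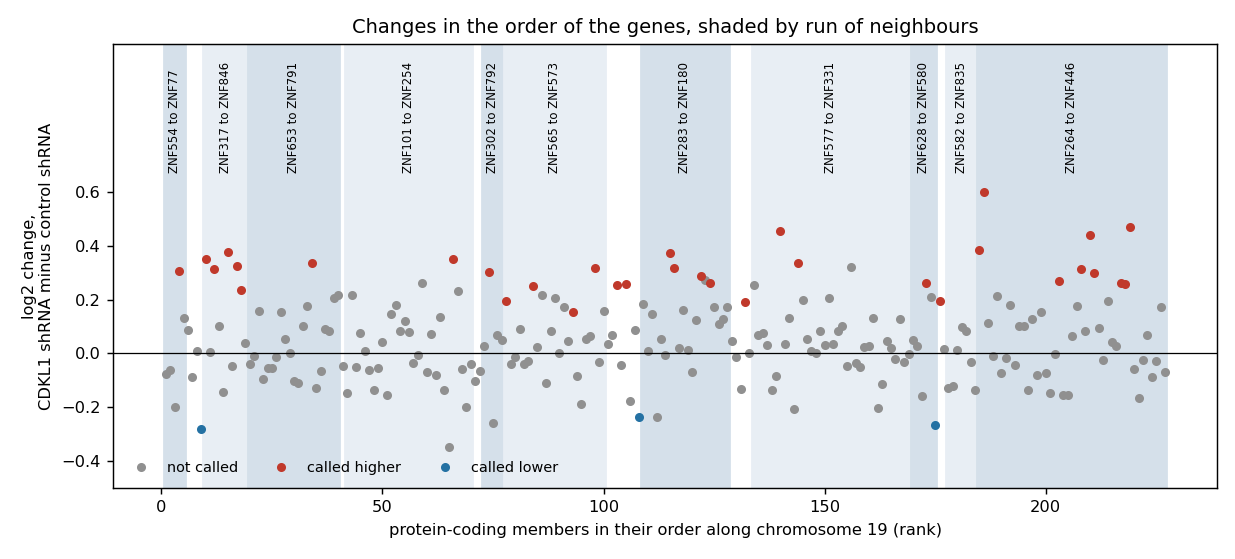
Log2 change (CDKL1 shRNA minus control shRNA) of 227 protein-coding chromosome 19 ZNF genes in their order along the chromosome, each point 1 gene, with red called higher and blue called lower. Shaded bands are the 11 runs of at least 5 neighbouring members, each named by its first and last gene. Red points appear in 10 of the 11 runs, 9 of them in the run from ZNF264 to ZNF446.

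Promoter sequences were examined after the called members were seen to be nearly all higher. Whether they share a cause was not tested. RefSeq promoters of GRCh38.p14, from 250 bases before to 50 bases after the first listed start, were found for 201 of the 233 members and for 28 of the 33 risen ones, and 16 motifs were searched on both strands. The letters CCGGAAGT, the core bound by ETS factors, stood in 43 of 201 member promoters (21.4%), 29 of 203 promoters of ZNF genes elsewhere (14.3%), 6.41% of the promoters of all measured genes and 4.44% of all promoters in the table. They stood in 11 of the 28 promoters of risen members (39.3%) and in 7 of 47 promoters of members that were not called but had a signal above the median gene (14.9%). These lists differ in signal, since 13 of the 33 risen members lay at or below the median gene. Other motifs differed between these lists as well. The NRF1 motif stood in 21.4% of risen and 4.26% of these uncalled promoters, against 12.9% of member promoters and 12.5% of measured genes. The CRE core TGACGT stood in 25% and 10.6%, against 11.9% and 9.78%, and the YY1 letters AAGATGGC in 14.3% and 6.38%. Less frequent in risen than in uncalled promoters were the GC box (64.3% and 70.2%), the CACCC box (7.14% and 12.8%), the CCAAT box (46.4% and 48.9%) and the TATA letters (0% and 2.13%). These shares rest on few promoters and were not tested. The letters GGGANTTCC, a form of the NF-kappaB motif, stood in 22 member promoters (10.9%, against 2.17% of measured genes), but in 13 of these 22 they overlapped the ETS letters. The TATA letters TATAAA stood in 4 member promoters (1.99%, against 9.19%), and the YY1 letters in 13 (6.47%, against 4.04%). Members descend from common ancestors by duplication, so their promoters are not independent, and a match of letters does not show that a factor binds.

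Of the 12 largest rises, ZNF805, ZNF587, ZNF264 and ZNF222 held the ETS letters before the start site, and the stretches around them are shown because they belong to members that rose. All 4 read 5′ to 3′ on the plus strand of GRCh38.p14, with the ETS letters in capitals as their reverse complement, 38, 15, 27 and 59 bases before the start in the order given. In ZNF805 and ZNF264 the capitals directly follow a run of G and overlap the NF-kappaB form.
ZNF805 (chr19:57240564-57240631): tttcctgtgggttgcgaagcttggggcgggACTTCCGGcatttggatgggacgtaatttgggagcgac
ZNF587 (chr19:57849814-57849858): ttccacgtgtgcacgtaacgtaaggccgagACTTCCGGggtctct
ZNF264 (chr19:57191443-57191499): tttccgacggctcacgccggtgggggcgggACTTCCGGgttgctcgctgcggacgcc
ZNF222 (chr19:44025290-44025357): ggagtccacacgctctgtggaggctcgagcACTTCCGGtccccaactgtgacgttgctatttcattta

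The corepressor machinery through which KRAB zinc finger proteins act had few called members in the fit as reported. Of 24 measured genes of this list, 1 rose (4.17%), 2 fell (8.33%) and 21 did not pass. All 24 had a signal above the median gene, where 15.5% of all genes were called higher and 12.3% lower. Of the 24 changes 18 were negative, with a median log2 change of -0.08. At an unadjusted p under 0.05 (limma) 9 were lower and 2 higher, against 1799 and 2230 of the 9066 genes of that signal. The CDKL1 shRNA arrays lay entirely below the controls for 9 (37.5%, against 24.9% of genes of that signal). They lay entirely above for 3 (12.5%, against 30.2%). TRIM28, the corepressor that binds the KRAB domain and is itself encoded on chromosome 19, gave 10.12, 10.16 and 10.20 in CDKL1 shRNA arrays, against 10.27, 10.23 and 10.24 in control arrays (log2 change -0.08, SE 0.04, adjusted p = 0.244, limma). SETDB1, the H3 lysine 9 methyltransferase, had a log2 change of -0.02 (SE 0.05). The heterochromatin protein gene CBX3 fell by 0.22 on the log2 scale (SE 0.05) and the maintenance DNA methyltransferase gene DNMT1 fell by 0.25 (SE 0.04), in 3 of 3 and 2 of 2 probe sets. CBX3 lost its call in 4 of 6 fits with 1 array left out (adjusted p of 0.0573 to 0.0673, limma) and DNMT1 in 0 of 6. The other heterochromatin protein 1 genes, CBX5 and CBX1, had log2 changes of -0.26 and -0.17. Neither passed (limma, adjusted p = 0.0821 and 0.0793), but all 7 probe sets of CBX5 were lower, with log2 changes of -0.84 to -0.26. CBX5 and CBX1 were picked out after their values were seen. EHMT2, TASOR, CHD3 and EHMT1 of the same list, also negative, lay nearer the threshold (limma, adjusted p of 0.0520 to 0.0609). ATF7IP, the partner of SETDB1, rose by 0.20 on the log2 scale (SE 0.04), with positive values in 4 of 4 probe sets, but it lost its call in 5 of 6 fits with 1 array left out (adjusted p of 0.0531 to 0.0567, limma) and with the mean of its probe sets (0.241). The number of falls in this list depended on the processing. After a further quantile normalisation 8 of the 24 were called lower (against 9.32% of all genes). A fit of genes brighter than the median gene called 9 lower (against 19.6% of genes in that fit). With the mean of all probe sets 7 were called lower (against 7.3%). Without _s or _x probe sets the number was 1 (against 6.63%), and with the ACTB covariate 0 (against 0.607%). Apart from the 19.6%, these shares include dim genes. In the fit as reported 3.31% of genes at or below the median signal were called lower, against 12.3% above it. Shares of all genes are thus low marks for a list of this signal.

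The count of 33 rises depended on the arrays and on the model. It was 14 without CDKL1 shRNA replicate 3, 17 without control replicate 3 and 19 without control replicate 2, where 4.94%, 5.56% and 5.74% of all genes were called higher, and each of these fits called 1 member lower, where 4.07%, 4.72% and 4.4% of all genes were. Without CDKL1 shRNA replicate 2, the array with the highest ACTB difference, 23 members rose and 2 fell, against 5.84% and 5.33% of all genes. Without CDKL1 shRNA replicate 1 there were 22 rises and 0 falls (6.74% and 4.7% of all genes), and without control replicate 1 there were 28 and 1 (7.25% and 5.98%). With the replicate number as a block there were 18 rises and 0 falls (5.65% and 4.3%). Scaling mattered less: a further quantile normalisation gave 33 rises and 3 falls (8.5% and 9.32% of all genes), and subtraction of each array's median gave 36 and 3 (8.85% and 6.43%). Averaging a gene's probe sets gave 34 and 2 (8.96% and 7.3%), the trend and robust variance model gave 40 and 3 (12.7% and 10.5%), and a fit of genes brighter than the median gene alone gave 32 and 3 among 74 members (24.4% and 19.6%). All 33 kept a positive change in every fit with 1 array left out. Their groups do not overlap, so this was fixed in advance and adds no support. With the ACTB difference of each array as a covariate 0 members were called higher and 0 lower (limma), where 0.601% and 0.607% of all genes were called, and at an unadjusted p under 0.05 there were 32 members higher (13.7%, against 7.19% of all genes) and 11 lower (4.72%, against 12.1%). In that fit the 33 rises were all positive, with a median log2 change of 0.29, against 0.31 without the covariate, and a median SE of 0.102, against 0.0558. The ACTB differences of the groups did not overlap, which limits what a fit with that covariate can separate. In a bulk culture, a change in every cell and a change in the share of cells that express a gene cannot be told apart either.

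**Figure D4:**
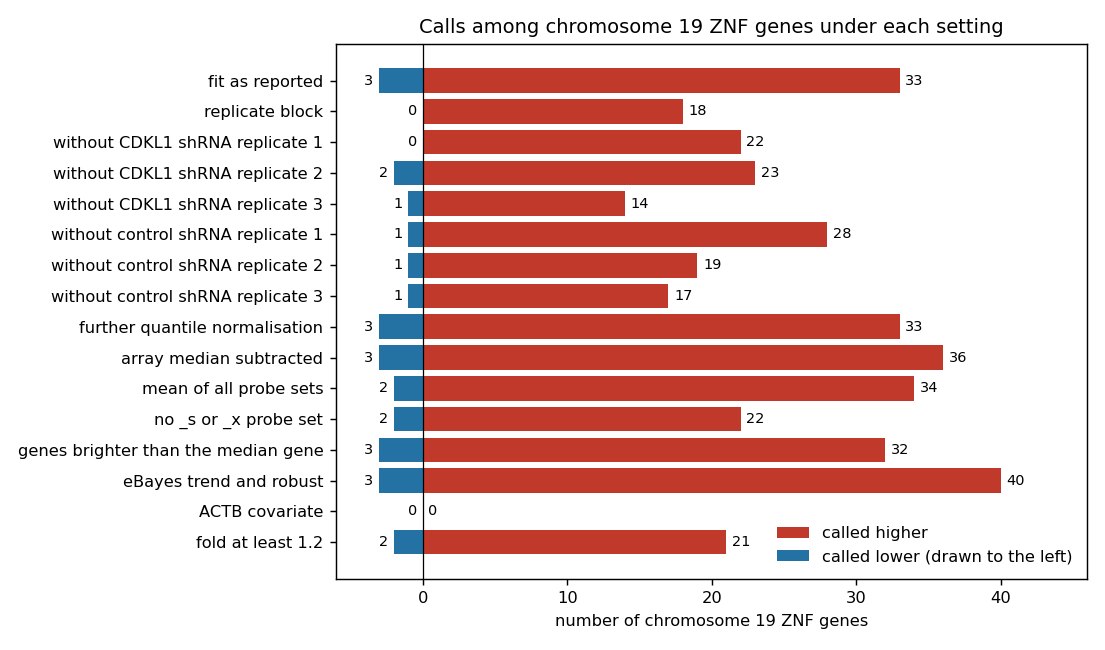
Number of chromosome 19 ZNF genes called higher (red, to the right) and lower (blue, to the left) in CDKL1 shRNA arrays, at an adjusted p of 0.05 in limma, for the fit as reported and for each alternative. Rises number 33 in the fit as reported, 14 to 28 with 1 array left out, and 0 in the fit with the ACTB covariate.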

How the data were processed

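The deposited log2 values were made by the authors with RMA, per the submitters' processing notes, which removes background within an array, equalises the distributions of the arrays and gives 1 log2 value per probe set. The RMA version is not stated in the labels or file headers. Of 49395 probe sets in the table, 102 were controls and were left out of the tests, 44988 were annotated to 1 gene, 1832 to several and 2473 to none, and only those annotated to 1 gene were used. RefSeq (GRCh38.p14) held the Entrez identifier of 44961 of these, and 0 symbols changed. The number of unused per-sample columns was 0.

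Each of 18132 genes was read by its probe set of highest mean, without a filter on dim genes. Groups of 3 arrays were compared with limma 3.58.1 in R 4.3.3 (group as the only term, two-sided, Benjamini-Hochberg over all genes, threshold 0.05). Python 3.11.15 with pandas 2.3.3 and matplotlib 3.10.9 wrote the tables and figures. On data simulated on these 18132 genes, 64% of 50 genes changed 1.25-fold and 100% of those changed 1.5-fold were recovered, with 8 false calls. The number of arrays limits the precision.

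Named members were the 12 largest called rises and up to 12 called falls without overlap between groups, every member of 4 lists with described roles, and the 3 with the highest signal. Other named genes were the targeted gene, called corepressor genes with TRIM28 and SETDB1, and the 2 largest called rises and falls of ZNF genes elsewhere. CBX1, CBX5, EHMT1, EHMT2, TASOR and CHD3 were added after their values were seen and were not followed through the alternatives. Members and lists were chosen with earlier results of these data known. Alternatives were a replicate block, leaving out each array, other normalisations, probe set rules and variance models, a filter on dim genes, a fold of 1.2 and an ACTB covariate.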

Additional observations from a re-analysis of the deposited data

How the results depend on the processing

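Direction held for the 33 rises in every alternative that could read them, except ZNF274, which turned to -0.084 without cross-hybridising (_s or _x) probe sets. Without _s or _x probe sets 27 of the 33 could be read. Dim signal limits what could be called, and the cause of each change below was not tested.

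For chromosome 19 ZNF genes, the count of rises (33) was 14 to 28 with 1 array left out, 18 with the replicate block, 0 with the ACTB covariate and 21 at a fold of at least 1.2, and the count of falls (3) was 0 to 2, 0 with the block and 0 with the covariate. The replicate numbers did not pair the arrays (same-number correlations of -0.03, -0.12 and 0.07). For ZNF genes elsewhere, rises (28) numbered 12 to 25 with 1 array left out, 18 with the replicate block, 45 among genes brighter than the median gene, 45 with trend and robust variance, 0 with the covariate and 15 at the fold, and falls (11) numbered 5 to 11 with 1 array left out, 7 with the mean of all probe sets, 19 with trend and robust variance and 1 with the covariate. For the corepressor list, rises (1) numbered 0 to 1 with 1 array left out, 0 with the block, the mean of all probe sets, the covariate and the fold, 2 among brighter genes and 3 with trend and robust variance. Its falls (2) numbered 1 to 3 with 1 array left out, 1 with the block, 8 after quantile normalisation, 7 with the mean of all probe sets, 1 without _s or _x probe sets, 9 among brighter genes, 9 with trend and robust variance, and 0 with the covariate and the fold. Over all genes, a further quantile normalisation gave 1542 rises and 1689 falls, against 1627 and 1413 as reported.

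The other 44 values that changed sign belong to genes that were not called. With 1 array left out, log2 changes crossed 0 for ZNF93 (-0.075 to 0.088), ZNF765 (-0.075 to 0.055), ZNF417 (-0.069 to 0.21), ZNF331 (-0.075 to 0.046), ZNF382 (-0.074 to 0.0083), ZNF175 (-0.077 to 0.055), ZNF71 (-0.13 to 0.044), ZNF667 (-0.030 to 0.060), ZNF296 (-0.0018 to 0.081), ZNF444 (-0.070 to 0.064), ZNF440 (-0.19 to 0.032) and SETDB1 (-0.058 to 0.014). With the ACTB covariate they turned for ZNF93 (-0.25), ZNF649 (-0.080), ZNF765 (0.20), ZNF350 (-0.051), ZNF175 (-0.083), ZNF667 (-0.052), ZNF296 (-0.079) and ZNF444 (-0.23). With the mean of all probe sets they turned for ZNF765 (0.10), ZNF146 (0.011), ZNF160 (-0.011), ZNF71 (0.013) and ZNF667 (-0.081), and without _s or _x probe sets for ZNF765 (0.46), ZNF160 (-0.050), ZNF175 (-0.029) and ZNF667 (-0.18). After quantile normalisation they turned for ZNF331 (0.021), ZNF175 (-0.0095) and ZNF444 (-0.0089), and after subtraction of the array median for ZNF331 (0.012).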
